A study of Mus musculus with 16 samples.

Results

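Semaphorins are guidance cues, and plexins and neuropilins are their receptors. The genes described here are the 31 whose mouse symbol is Sema with a class number and letter (classes 3 to 7), Plxn with a letter and number, Nrp1 or Nrp2. They were chosen by name from a table of 55356 gene identifiers, and comprise 20 ligands and 11 receptors (9 plexins and 2 neuropilins). The ligands fall into class 3 (7 genes), class 4 (6), class 5 (2), class 6 (4) and class 7 (1). Of the 31 genes, 30 had enough counts to be tested, and Plxnb3, with 1 to 5 counts per library, did not.

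Class 3 semaphorins are secreted, and most of them act through a complex of a neuropilin, which binds the ligand, and a type A plexin, which carries the signal into the cell. Classes 4 to 6 span the membrane and class 7 is anchored to it, and these bind plexins directly. Plexins act on small GTPases and the cytoskeleton, and Sema3a acting through Nrp1 is the textbook cue that collapses the growth cones of sensory axons that depend on nerve growth factor.

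RNA was measured in neurons of dorsal root ganglia (the clusters of sensory nerve cells beside the spinal cord) grown from CD1 mouse embryos. There were 4 groups of 4 libraries. Inhibitor plus nocodazole cultures received 500 nM GNE3511, an inhibitor of the stress kinase DLK, and 15 minutes later 200 nM nocodazole, which depolymerises microtubules. Nocodazole cultures received DMSO (the solvent) and then nocodazole, inhibitor cultures received GNE3511 and then DMSO, and DMSO cultures received DMSO both times. The second treatment lasted 16 hours and began at 6 days in vitro. All 4 groups grew on poly-D-lysine and laminin with B27 supplement, 50 ng/ml nerve growth factor, and 1 µM each of fluorodeoxyuridine, which blocks dividing cells, and uridine. The labels give neither the age or sex of the embryos nor whether the replicates came from separate cultures, so the tests speak only of the variation among these libraries, and that may be technical.

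Libraries held 30987962 to 43321421 counts. All 8 neuronal markers examined were present in every library, with Rbfox3 at 137 to 307 CPM (counts scaled to a common library size) and Prph at 2480 to 3180 CPM. The summed CPM of these markers was 5120 to 6760 in inhibitor plus nocodazole cultures, 4760 to 5670 in nocodazole cultures, 6030 to 7410 in inhibitor cultures and 7440 to 8320 in DMSO cultures. Of the 8, 6 were called lower in nocodazole than in DMSO cultures, where 19% of all genes tested were called lower and 18.6% higher. Tubb3 and Prph made up most of these sums. Tubb3 averaged 1590, 1010, 2360 and 3070 CPM in the same order of groups, and Prph 2960, 2840, 2660 and 2910 CPM. The sums therefore differ largely through the single gene Tubb3. In nocodazole against DMSO cultures Prph (log2 change -0.03) and Snap25 (-0.15) were not called. Markers of Schwann cells and satellite glia summed to 74.1 to 138, 85.8 to 134, 87.3 to 154 and 151 to 175 CPM in the same order of groups, nearly all of it from S100b and Mbp. Sox10 did not pass 0.407 CPM. Fibroblast markers summed to 1.71 to 3.17, 6.43 to 9.72, 2.37 to 6.19 and 2.46 to 6.89 CPM and macrophage markers to 1.75 to 3.03, 4.16 to 5.59, 1.57 to 2.76 and 2.23 to 2.63 CPM. Endothelial markers summed to 0.683 to 0.937, 1.24 to 1.43, 0.785 to 1.24 and 0.908 to 1.24 CPM, and markers of pericytes and smooth muscle to 2.05 to 2.44, 1.57 to 2.33, 2.41 to 3.46 and 1.85 to 3.43 CPM. Cx3cr1, a macrophage marker, was at 0 in 12 libraries, as were the endothelial markers Cldn5 and Emcn. In nocodazole against DMSO cultures, called markers of these 5 cell types were Erbb3 (higher) and Mbp (lower) of 4 glial genes tested, Dcn (higher) of 6 fibroblast genes, Cd68 (higher) of 3 macrophage genes, 0 of 1 endothelial gene and 0 of 5 pericyte and smooth muscle genes (0 and 1 at an unadjusted p below 0.05 by edgeR). In such cultures, fewer cells of a type and less RNA per cell cannot be told apart. On the first principal component (38.2% of the variance), inhibitor plus nocodazole replicate 1 stood at 10.4, apart from its 3 replicates at -31.4 to -28.4, while nocodazole libraries stood at 59.5 to 69.7, inhibitor libraries at -41.6 to -9.7 and DMSO libraries at -26.5 to -12.2. Counts of called members and pathway genes are therefore given below with and without this library where they differ, beside the share of all genes called in the same fit. The part of these differences between libraries in the results was not tested.

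The members spanned a wide range of levels. Per kilobase of exon, Plxnd1, the receptor of Sema3e, was the most abundant in DMSO cultures at 115 ± 8.46 CPM per kb (SD, n = 4 here and below), followed by the type A plexin Plxna4 at 67.3 ± 3.96 and the transmembrane ligand Sema4f at 66.4 ± 3.76. Plxnd1 stood above the next genes by more than the SDs, and Plxna4 and Sema4f did not differ beyond them. Plxna2 followed at 42.9 ± 3.15 CPM per kb, Sema4d at 33.3 ± 1.55, Nrp1 at 27.3 ± 1.60, Plxna3 at 25.4 ± 1.04, Sema5a at 22.3 ± 1.61, Sema3f at 18.3 ± 1.30, Sema6d at 17.9 ± 0.832 and Sema4b at 13.4 ± 1.17. Among these, Nrp1 and Plxna3 overlapped within their SDs, as did Sema3f and Sema6d. Sema4g at 9.95 ± 0.572 and Plxnb1 at 7.33 ± 0.486 CPM per kb came next. Sema6a, Sema3c, Plxnb2, Sema6c, Sema4c and Plxna1 lay between 5.63 ± 1.33 and 4.26 ± 0.499 CPM per kb, and no 2 neighbours in that order differed beyond their SDs. Plxnc1 was at 3.31 ± 0.229 CPM per kb, Nrp2 at 2.79 ± 0.133, Sema7a at 2.67 ± 0.267, Sema3d at 1.92 ± 0.196 and Sema6b at 1.56 ± 0.231 CPM per kb. The remaining members were below 1 CPM per kb. They were Sema3a (0.848 ± 0.181), the growth cone collapsing cue named above, Sema3b (0.748 ± 0.126), Sema4a (0.468 ± 0.089), Sema3g (0.102 ± 0.0481), Sema3e (0.0882 ± 0.0218), Sema5b (0.039 ± 0.00758) and Plxnb3 (0.00674 ± 0.00302). Nrp2 and Sema7a overlapped within their SDs, as did Sema3d and Sema6b, Sema3a and Sema3b, and Sema3g and Sema3e.

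**Figure D1:**
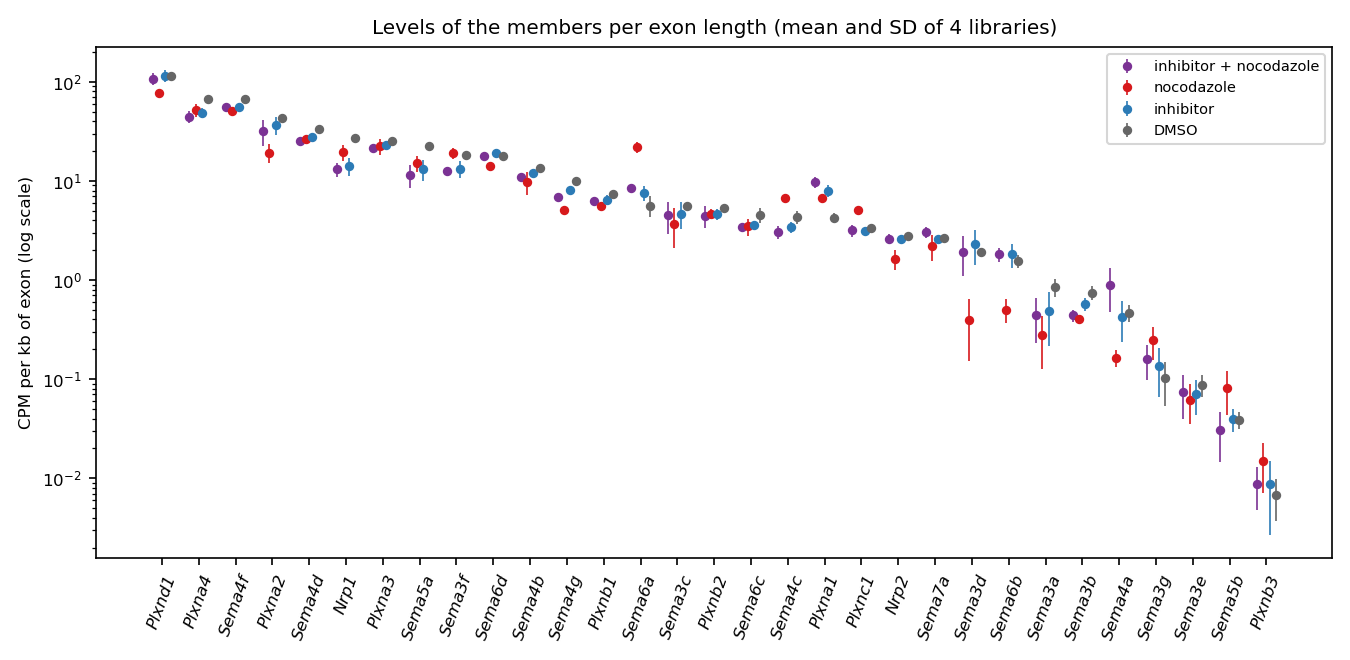
Level of each of the 31 members in CPM per kilobase of exon (vertical axis, log scale), ordered from left to right by the level in DMSO cultures; points are means and bars SDs of 4 libraries per group, in the order inhibitor plus nocodazole, nocodazole, inhibitor and DMSO. Plxnd1 is highest at 115 CPM per kb in DMSO cultures, and Sema6a stands out in nocodazole cultures at 21.9 ± 2.68 CPM per kb against 5.63 ± 1.33 in DMSO cultures.

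The first comparison asks how these genes differed after microtubules were depolymerised. Most members differed between nocodazole and DMSO cultures, and most of those that differed were lower. By edgeR's quasi-likelihood test with Benjamini-Hochberg adjustment over 19156 genes, 24 of 30 members were called at an adjusted p below 0.05 (80%), where 37.5% of all genes tested were called (without inhibitor plus nocodazole replicate 1, the same count against 40.2%). Of these, 6 were higher, where 18.6% of all genes were, and 18 were lower, where 19% of all genes were. Their median log2 change was -0.40, against 0.01 over all genes tested. Since called genes are commoner among abundant ones, the same count was made over genes with a mean of at least 10 CPM, a limit chosen after seeing the data: 18 of 22 members were called there, against 46.9% of 9237 genes. Among ligands 4 rose and 12 fell of 20 (median -0.43), and among receptors 2 rose and 6 fell of 10 (median -0.38). By class, all 6 class 4 ligands were called (1 higher, 5 lower), as were all 4 of class 6 (1 higher, 3 lower), both of class 5 (1 higher, 1 lower), both neuropilins (lower) and 4 of 7 of class 3 (1 higher, 3 lower). Of 8 plexins tested, 2 rose and 4 fell.

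**Figure D2:**
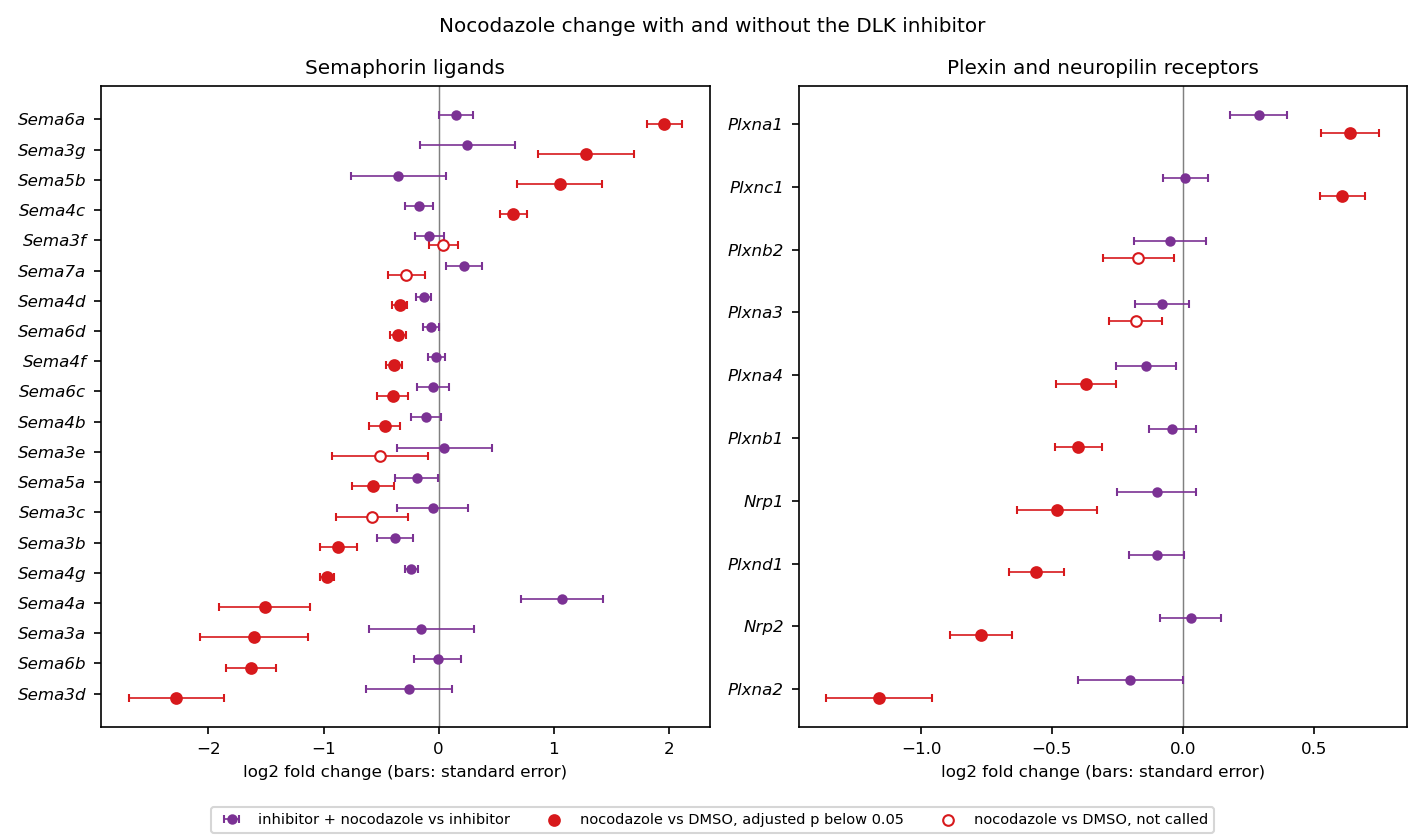
Log2 fold change of each tested member (horizontal axis, bars are standard errors) in inhibitor plus nocodazole against inhibitor cultures (purple) and in nocodazole against DMSO cultures (red, filled where called at an adjusted p below 0.05); ligands are on the left and receptors on the right. Red points run from 1.96 for Sema6a to -2.28 for Sema3d, while no purple change was called.

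The second comparison asks whether the nocodazole change differed when the DLK inhibitor was present. With the inhibitor present, nocodazole changed no member past the threshold, as was so for nearly all genes tested. In inhibitor plus nocodazole against inhibitor cultures, 0 of 20 ligands and 0 of 10 receptors were called by edgeR's quasi-likelihood test, where 0.0835% of all genes were called (0.0783% higher and 0.00522% lower), and the median log2 change of the members was -0.07 against 0.00 over all genes. At an unadjusted p below 0.05 there were 3 ligands and 1 receptor, and DESeq2 called 1 ligand, Sema4g (log2 change -0.24, adjusted p = 0.0154 by DESeq2). Without inhibitor plus nocodazole replicate 1, edgeR called 1 ligand, Sema4a (log2 change 1.36, adjusted p = 0.044), and 0 receptors, where 0.454% of all genes were called. The difference between the 2 nocodazole changes was tested as an interaction, which is the log2 change with the inhibitor minus that without it. It was called for 11 of 30 members (36.7%), where 18.7% of all genes were called. Of the members, 8 were positive (9.52% of all genes) and 3 negative (9.2% of all genes). The 11 comprised 7 of 20 ligands and 4 of 10 receptors, or 9 ligands and 5 receptors without inhibitor plus nocodazole replicate 1, where 27.1% of all genes were called. Among genes with a mean of at least 10 CPM, 9 of 22 members were called in the interaction, against 25.2% of genes. For the other members tested, the nocodazole change was not shown to differ with the inhibitor, which does not show that it was alike. The interaction was also positive for 5 of 8 neuronal markers (62.5%), with Elavl4 at 1.31, Tubb3 at 1.03, Rbfox3 at 0.69, Isl1 at 0.66 and Pou4f1 at 0.57, and for Mbp (0.36), and negative for the macrophage marker Cd68 (-2.01). The part of these markers in the members' interactions was not tested.

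Among ligands, Sema6a, a transmembrane semaphorin that binds plexins A2 and A4, had the largest rise. It was at 80.2, 69.5, 66.7 and 78.2 CPM in inhibitor plus nocodazole cultures, 196, 158, 210 and 204 CPM in nocodazole cultures, 60, 80.7, 69.2 and 55.1 CPM in inhibitor cultures, and 43.7, 36.9, 63.7 and 53.3 CPM in DMSO cultures (replicates 1 to 4 in order, here and below). All 4 nocodazole libraries were above all 12 others, and the other 3 groups overlapped in part. The log2 change in nocodazole against DMSO cultures was 1.96 ± 0.152 (standard error, SE, here and below for log2 changes; 3.88-fold, edgeR adjusted p = 1.13e-07). With the inhibitor, in inhibitor plus nocodazole against inhibitor cultures, it was 0.15 ± 0.148 (adjusted p = 0.99), and the interaction was -1.80 ± 0.21 (adjusted p = 3.9e-05). Sema4c, a ligand of plexin B2, was at 16, 13, 11.7 and 15.3 CPM in inhibitor plus nocodazole cultures, 31.3, 33.9, 27.4 and 31.3 CPM in nocodazole cultures, 16.2, 12.9, 17.2 and 16.8 CPM in inhibitor cultures, and 16.5, 18.3, 22.3 and 21.9 CPM in DMSO cultures. Again the nocodazole libraries were above all 12 others, and inhibitor plus nocodazole libraries were below all DMSO libraries. Its log2 change was 0.65 ± 0.119 in nocodazole against DMSO cultures (adjusted p = 0.00045), and the interaction was -0.82 ± 0.17 (adjusted p = 0.00354). Sema4c was lower in inhibitor plus nocodazole than in DMSO cultures, at -0.49 ± 0.121 (adjusted p = 0.0105). In the mouse annotation 7.3% of the Sema4c exon bases overlap D430040D24Rik on the opposite strand. As no strand setting is given, their reads may not be told apart. That gene averaged 0.466, 0.789, 0.589 and 0.541 CPM in inhibitor plus nocodazole, nocodazole, inhibitor and DMSO cultures.

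The other 2 ligands that rose were near the detection limit, with at most 56 counts in a library. Sema3g, a secreted semaphorin known from endothelium, was at 1.03, 0.564, 0.869 and 0.424 CPM in inhibitor plus nocodazole cultures, 1.13, 1.68, 0.725 and 0.943 CPM in nocodazole cultures, 0.413, 0.872, 0.908 and 0.279 CPM in inhibitor cultures, and 0.747, 0.469, 0.415 and 0.217 CPM in DMSO cultures. The nocodazole and DMSO libraries overlapped at 1 library each. Its log2 change was 1.28 ± 0.416 in nocodazole against DMSO cultures (edgeR adjusted p = 0.0231), and the call was lost without nocodazole replicate 2 (adjusted p = 0.0821), DMSO replicate 3 (0.0568) or DMSO replicate 4 (0.0713). Sema5b was at 0.216, 0.094, 0.186 and 0.367 CPM in inhibitor plus nocodazole cultures, 0.414, 0.329, 0.635 and 0.943 CPM in nocodazole cultures, 0.22, 0.232, 0.282 and 0.38 CPM in inhibitor cultures, and 0.342, 0.293, 0.253 and 0.217 CPM in DMSO cultures. Here too the nocodazole libraries overlapped the DMSO libraries, with replicate 2 of the first below replicate 1 of the second. The log2 change was 1.05 ± 0.371 (adjusted p = 0.0339), and the call was lost without nocodazole replicate 3 (adjusted p = 0.0682) or 4 (0.14), without DMSO replicate 2 (0.0599), 3 (0.0763) or 4 (0.0835), or with no filter on low counts (0.0623). Neither interaction was called: that of Sema3g was -1.03 ± 0.588 (adjusted p = 0.233) and that of Sema5b -1.41 ± 0.554 (adjusted p = 0.0864), or -1.78 (0.0454) without inhibitor plus nocodazole replicate 4 and -1.60 (0.0498) without nocodazole replicate 2.

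Of the ligands that fell, Sema3d, Sema4a, Sema6b, Sema4g and Sema4f also differed in the interaction. Sema3d, a secreted class 3 semaphorin, was at 6.51, 21.9, 16.8 and 21.2 CPM in inhibitor plus nocodazole cultures, 1.74, 2.15, 6.38 and 3.38 CPM in nocodazole cultures, 27.9, 9.82, 18.2 and 23.4 CPM in inhibitor cultures, and 14.9, 18.9, 16.4 and 15.9 CPM in DMSO cultures. Every nocodazole library was below every other library, and inhibitor plus nocodazole replicate 1 and inhibitor replicate 2 were the lowest of their groups. For Sema3d the log2 change was -2.28 ± 0.412 in nocodazole against DMSO cultures (edgeR adjusted p = 0.000393) and -0.26 ± 0.372 in inhibitor plus nocodazole against inhibitor cultures (adjusted p = 0.999), with an interaction of 2.02 ± 0.551 (adjusted p = 0.0182). Sema4a, a transmembrane semaphorin known from T cell activation, was at 1.71, 5.95, 4.84 and 6.87 CPM in inhibitor plus nocodazole cultures, 0.855, 0.658, 1.03 and 1.01 CPM in nocodazole cultures, 3.14, 1.05, 1.88 and 3.09 CPM in inhibitor cultures, and 2.4, 2.99, 1.91 and 2.82 CPM in DMSO cultures. Its nocodazole libraries were again the lowest, and 3 of 4 inhibitor plus nocodazole libraries were the highest of all. The log2 change was -1.51 ± 0.395 without the inhibitor (adjusted p = 0.00664) and 1.07 ± 0.359 with it (adjusted p = 0.519), and the interaction was 2.58 ± 0.534 (adjusted p = 0.00358). Without inhibitor plus nocodazole replicate 1, Sema4a was also called against inhibitor cultures (above) and against DMSO cultures (log2 change 1.22, adjusted p = 0.00802, against 0.93 and 0.0858 with it).

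Sema6b, a transmembrane ligand of plexin A4, was at 7.04, 5.89, 6.95 and 8.82 CPM in inhibitor plus nocodazole cultures, 2.04, 2.66, 1.36 and 1.92 CPM in nocodazole cultures, 6.11, 8.95, 8.89 and 5.04 CPM in inhibitor cultures, and 6.56, 4.89, 6.31 and 7.01 CPM in DMSO cultures. The nocodazole libraries were below all others, and the other 3 groups overlapped. For Sema6b the log2 change was -1.63 ± 0.219 in nocodazole against DMSO cultures (edgeR adjusted p = 2.6e-05) and -0.01 ± 0.203 with the inhibitor (adjusted p = 0.999), and the interaction was 1.62 ± 0.298 (adjusted p = 0.00158). Sema4g, a transmembrane class 4 ligand, was at 62.7, 60.2, 57 and 56.3 CPM in inhibitor plus nocodazole cultures, 43.8, 42.2, 46.4 and 43.1 CPM in nocodazole cultures, 72.8, 65.7, 67.9 and 72.4 CPM in inhibitor cultures, and 83.4, 86.2, 81.9 and 93.1 CPM in DMSO cultures. The 4 groups did not overlap at all, and stood in the order nocodazole, inhibitor plus nocodazole, inhibitor, DMSO. Its log2 change was -0.97 ± 0.057 in nocodazole against DMSO cultures (adjusted p = 9.42e-09), -0.31 ± 0.0562 in inhibitor against DMSO cultures (adjusted p = 0.00268) and 0.43 ± 0.0569 in inhibitor plus nocodazole against nocodazole cultures (adjusted p = 2.27e-05), with an interaction of 0.73 ± 0.08 (adjusted p = 2.4e-05). Sema4f, the most abundant ligand per length, was at 252, 306, 310 and 310 CPM in inhibitor plus nocodazole cultures, 261, 273, 275 and 261 CPM in nocodazole cultures, 321, 268, 293 and 309 CPM in inhibitor cultures, and 351, 344, 332 and 379 CPM in DMSO cultures. All DMSO libraries were above all others, and inhibitor plus nocodazole replicate 1 lay below its replicates. The log2 change was -0.39 ± 0.0712 in nocodazole against DMSO cultures (adjusted p = 0.000398) and the interaction 0.38 ± 0.101 (adjusted p = 0.0158).

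Sema3a and Sema3b, both secreted, and Sema5a, a transmembrane semaphorin with thrombospondin repeats, fell with no called interaction. Sema3a was at 1.85, 8.18, 8.07 and 6.53 CPM in inhibitor plus nocodazole cultures, 2.34, 1.77, 5.95 and 5.5 CPM in nocodazole cultures, 8.73, 2.94, 4.38 and 11 CPM in inhibitor cultures, and 9.67, 15.2, 10.1 and 12.1 CPM in DMSO cultures. All nocodazole libraries were below all DMSO libraries, and within the treated groups the libraries spread over 3-fold or more. The log2 change in nocodazole against DMSO cultures was -1.60 ± 0.469 (edgeR adjusted p = 0.0131). The interaction was 1.45 ± 0.653 (adjusted p = 0.131), or 1.76 (adjusted p = 0.0276) without inhibitor plus nocodazole replicate 1. Sema3b was at 1.71, 2.1, 2.39 and 2.2 CPM in inhibitor plus nocodazole cultures, 1.96, 1.97, 1.99 and 1.85 CPM in nocodazole cultures, 2.53, 2.76, 2.32 and 3.32 CPM in inhibitor cultures, and 3.24, 4.07, 2.9 and 4.09 CPM in DMSO cultures. Nocodazole libraries were below all inhibitor and DMSO libraries and within the range of the inhibitor plus nocodazole libraries. For Sema3b the log2 change was -0.87 ± 0.157 in nocodazole against DMSO cultures (adjusted p = 0.000365) and -0.77 ± 0.155 in inhibitor plus nocodazole against DMSO cultures (adjusted p = 0.00308). Sema5a was at 138, 256, 253 and 210 CPM in inhibitor plus nocodazole cultures, 248, 229, 302 and 341 CPM in nocodazole cultures, 281, 189, 200 and 308 CPM in inhibitor cultures, and 419, 453, 379 and 413 CPM in DMSO cultures. All DMSO libraries were above all others, and the other 3 groups overlapped. The log2 change was -0.57 ± 0.186 in nocodazole against DMSO cultures (adjusted p = 0.023), a call lost without nocodazole replicate 1 (adjusted p = 0.0662) or 2 (0.0699) or DMSO replicate 2 (0.0588).

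The percentage of counts from mitochondrial genes differed between the libraries among which several of these ligands spread. It was 1.71, 1.09, 0.944 and 0.865% in inhibitor plus nocodazole replicates 1 to 4, 1.36, 1.5, 0.875 and 0.977% in nocodazole cultures, 1.08, 1.39, 1.78 and 1.06% in inhibitor cultures, and 1.07, 0.834, 0.909 and 0.765% in DMSO cultures. No DMSO library was above 1.07%, and all shares of 1.36% or more were in the other groups. Within their groups, Sema3a and Sema3d were lowest in inhibitor plus nocodazole replicate 1 and in inhibitor replicate 2. Among nocodazole libraries they were lower in replicates 1 and 2 than in 3 and 4. The same held for Sema3c, Sema3e, Sema3f, Sema4a, Sema5a, Plxna2, Plxna3, Plxnb1 and Plxnd1. The remaining members did not show this order in every treated group. The part of this order, of the mitochondrial shares or of the run of samples in the results was not tested.

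Among the remaining ligands, Sema4b, Sema4d, Sema6c and Sema6d, all transmembrane, fell by 0.47, 0.34, 0.40 and 0.35 on the log2 scale in nocodazole against DMSO cultures (edgeR adjusted p = 0.0106, 0.000586, 0.0287 and 0.000863). The Sema6c call was lost without nocodazole replicate 1 (adjusted p = 0.0994) or 2 (0.0784), without DMSO replicate 3 (0.0787) or 4 (0.108), or with only the 2 groups in the fit (0.052). The interactions of Sema4d (0.21, adjusted p = 0.118) and Sema6d (0.29, 0.0524) were not called, but that of Sema4d was without nocodazole replicate 2 (0.26, 0.0481), and that of Sema6d without inhibitor plus nocodazole replicate 1 (0.33, 0.0165) or nocodazole replicate 4 (0.35, 0.0148), or by DESeq2 (0.29, 0.038). Sema3c was at -0.58 (adjusted p = 0.152), Sema3e at -0.51 (0.353), Sema3f at 0.04 (0.812) and Sema7a, the membrane-anchored ligand of Plxnc1, at -0.28 (0.188). Sema7a was called at -0.50 (adjusted p = 0.00682) without nocodazole replicate 4, so its value rests on that library. Its interaction was 0.50 (edgeR adjusted p = 0.137), and was called at 0.72 (0.0111) without the same library.

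Among receptors, Plxnc1, the receptor of Sema7a, was higher after nocodazole alone. It was at 31.5, 25.1, 26.1 and 23 CPM in inhibitor plus nocodazole cultures, 41.8, 44.8, 40.5 and 41.4 CPM in nocodazole cultures, 25, 27.9, 27.9 and 24 CPM in inhibitor cultures, and 30, 26.2, 26 and 28.5 CPM in DMSO cultures. The nocodazole libraries were above all 12 others, which overlapped. For Plxnc1 the log2 change was 0.61 ± 0.0859 in nocodazole against DMSO cultures (edgeR adjusted p = 4.32e-05) and 0.01 ± 0.0863 with the inhibitor (adjusted p = 0.999), and the interaction was -0.59 ± 0.122 (adjusted p = 0.00337). Plxna1, a type A plexin that pairs with neuropilins, was at 93.1, 86.1, 74.4 and 98.7 CPM in inhibitor plus nocodazole cultures, 59, 63, 53.1 and 65.8 CPM in nocodazole cultures, 71, 76.5, 81.2 and 58.7 CPM in inhibitor cultures, and 34.7, 34.5, 42.8 and 42 CPM in DMSO cultures. The DMSO libraries were below all others, and the inhibitor plus nocodazole libraries were above all nocodazole libraries. For Plxna1 the log2 change was 0.64 ± 0.111 in nocodazole against DMSO cultures (adjusted p = 0.000253), 0.90 ± 0.111 in inhibitor against DMSO cultures (adjusted p = 0.00018) and 1.19 ± 0.111 in inhibitor plus nocodazole against DMSO cultures (adjusted p = 8.92e-06). The interaction was -0.35 ± 0.155 (adjusted p = 0.125), and was called at -0.44 (adjusted p = 0.043) without inhibitor replicate 4. The annotation places 10.7% of the Plxna1 exon bases over Gm26811 on the opposite strand, which averaged 1.19, 1.05, 1.08 and 0.517 CPM in inhibitor plus nocodazole, nocodazole, inhibitor and DMSO cultures, and whose reads may not be told apart from those of Plxna1.

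Nrp2, the neuropilin that binds Sema3f, fell. It was at 34.6, 27.4, 33.2 and 29.1 CPM in inhibitor plus nocodazole cultures, 17.2, 26, 15.9 and 18.6 CPM in nocodazole cultures, 30.2, 32.2, 29.8 and 29.7 CPM in inhibitor cultures, and 33.1, 35.1, 32.6 and 31.3 CPM in DMSO cultures. All nocodazole libraries were below all others, with replicate 2 the closest to them. For Nrp2 the log2 change was -0.77 ± 0.118 in nocodazole against DMSO cultures (edgeR adjusted p = 9.49e-05) and 0.03 ± 0.117 with the inhibitor (adjusted p = 0.999), and the interaction was 0.80 ± 0.166 (adjusted p = 0.00371). Plxna2, a receptor of Sema6a, was at 319, 666, 630 and 567 CPM in inhibitor plus nocodazole cultures, 280, 257, 373 and 407 CPM in nocodazole cultures, 767, 481, 549 and 714 CPM in inhibitor cultures, and 744, 810, 686 and 709 CPM in DMSO cultures. The nocodazole libraries were below all inhibitor and DMSO libraries, and inhibitor plus nocodazole replicate 1 lay among them. In nocodazole against DMSO cultures the log2 change of Plxna2 was -1.16 ± 0.203 (adjusted p = 0.000296). The interaction, 0.96 ± 0.284 (adjusted p = 0.0273), was lost without any one of 8 libraries: inhibitor plus nocodazole replicates 2, 3 or 4, nocodazole replicates 1 or 2, inhibitor replicates 2 or 3, or DMSO replicate 2 (adjusted p = 0.0503 to 0.0622). Plxnd1 was at 625, 874, 802 and 832 CPM in inhibitor plus nocodazole cultures, 540, 549, 623 and 560 CPM in nocodazole cultures, 976, 696, 862 and 829 CPM in inhibitor cultures, and 826, 789, 811 and 928 CPM in DMSO cultures. Nocodazole libraries were again the lowest, with inhibitor plus nocodazole replicate 1 just above the highest of them. Plxnd1 had a log2 change of -0.56 ± 0.105 in nocodazole against DMSO cultures (adjusted p = 0.00053). The interaction, 0.46 ± 0.148 (adjusted p = 0.0403), was lost without any one of 12 libraries (all but inhibitor plus nocodazole replicate 1, nocodazole replicate 3, inhibitor replicate 1 and DMSO replicate 2; adjusted p = 0.0524 to 0.0867).

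The other receptors that fell in nocodazole against DMSO cultures were Plxnb1 (log2 change -0.40, edgeR adjusted p = 0.00235), Plxna4 (-0.37, 0.019) and Nrp1 (-0.48, 0.0209). The Plxna4 call was lost without nocodazole replicate 1 (adjusted p = 0.0557) or 2 (0.0644) or DMSO replicate 2 (0.05), and the Nrp1 call without nocodazole replicate 3 (0.0672) or DMSO replicate 2 (0.0551). The interaction of Plxnb1 (0.35, adjusted p = 0.0615) was called by DESeq2 (0.35, 0.0458) and without inhibitor plus nocodazole replicate 1 (0.40, 0.0258), nocodazole replicate 3 (0.42, 0.0299) or inhibitor replicate 1 (0.40, 0.0474) or 4 (0.39, 0.0488). Plxna3 was at -0.18 (adjusted p = 0.178) and Plxnb2, the receptor of Sema4c, at -0.17 (0.351). Plxna3 was called at -0.31 (adjusted p = 0.00781) without nocodazole replicate 3, so its value rests on that library. Plxnb3 averaged 0.0574 ± 0.0266, 0.0965 ± 0.051, 0.0568 ± 0.0393 and 0.0437 ± 0.0196 CPM in inhibitor plus nocodazole, nocodazole, inhibitor and DMSO cultures, and was not tested.

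**Figure D3:**
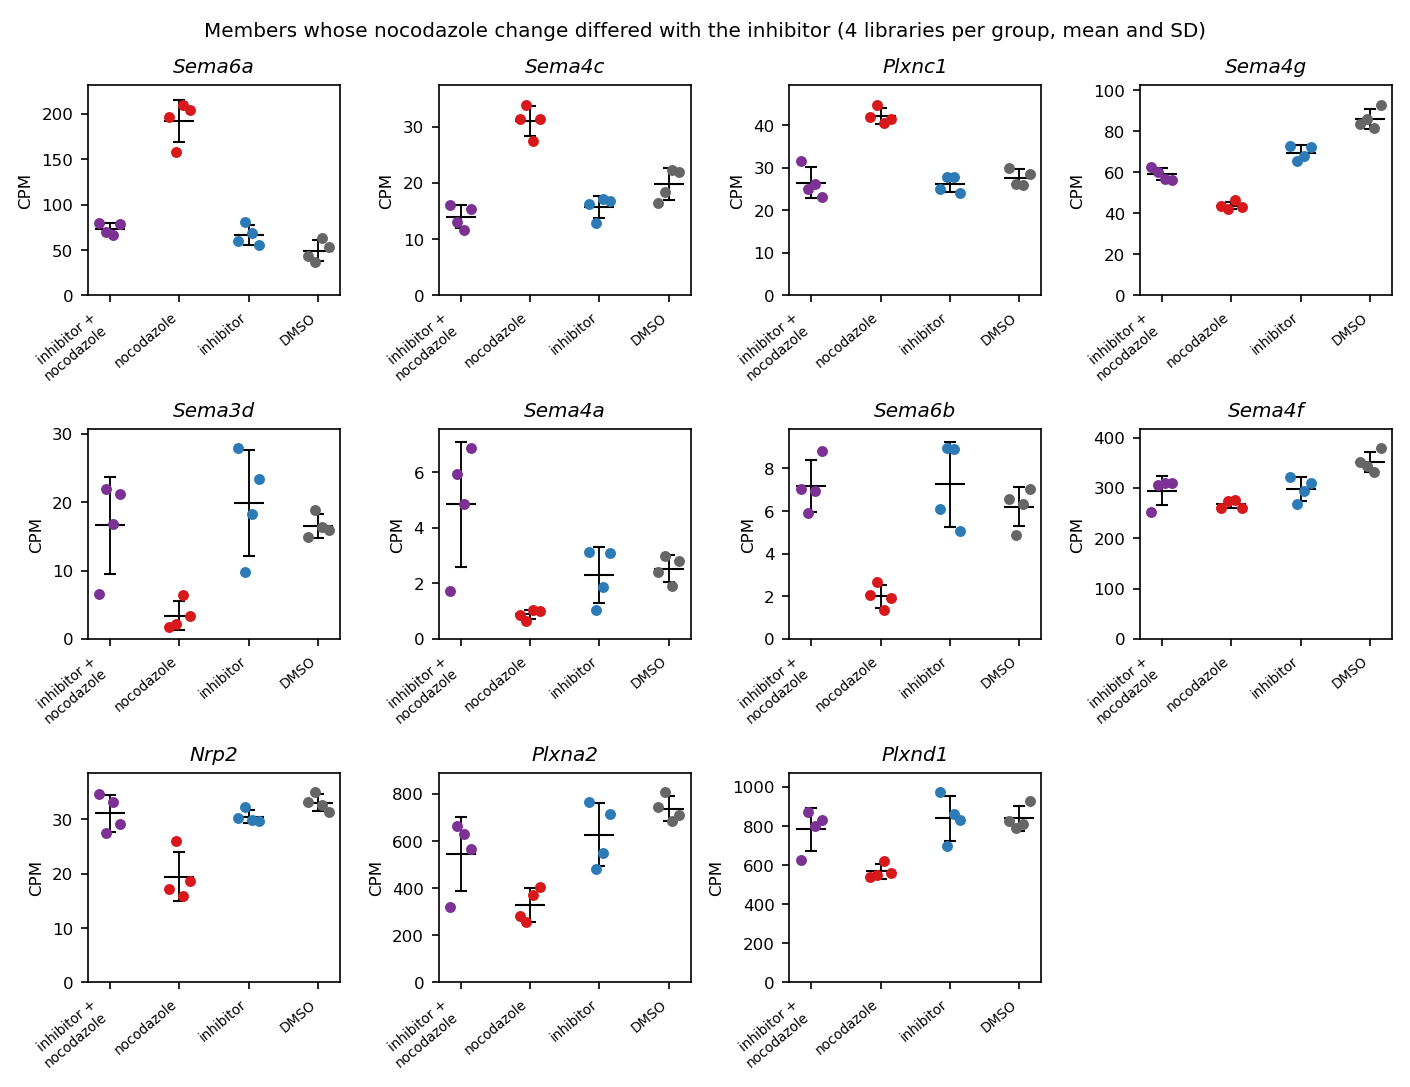
CPM (vertical axes, from 0) of the 11 members called in the interaction, in inhibitor plus nocodazole, nocodazole, inhibitor and DMSO cultures from left to right; each point is a library and black bars are the mean and SD of 4. The nocodazole libraries of Sema6a, Sema4c and Plxnc1 are above all others, those of Sema4g, Sema3d, Sema4a, Sema6b, Nrp2 and Plxnd1 are below all others, and inhibitor plus nocodazole replicate 1 (leftmost purple point) sits low for Sema3d, Sema4a, Sema4f, Plxna2 and Plxnd1.

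The promoters of 3 members called in the interaction are shown, since the series concerns DLK, whose signal is known to reach the AP-1 transcription factor Jun. RefSeq promoter windows (GRCm38.p6, 250 bases upstream of an annotated start) matched 26 of the 31 members, with 37 windows. The AP-1 type motif TGANTCA, where N is any base, was searched on both strands, which are covered together because the motif is its own reverse complement. It was found in 3 of these 37 windows, in Sema4c, Sema4d and Sema6b, and in 6.75% of all 32851 windows. Members without a window were not searched. Among those with a window that were called in the interaction, only Sema4c and Sema6b had a match. The 3 promoters shown include both and were not drawn by a rule, so they do not represent the other members. The related motif TGACGTCA, also its own reverse complement and containing no match to the first, was in 0 of the 37 and in 1.55% of all windows. Below, matches are in capitals. For Sema4c, which rose after nocodazole alone, the motif begins 22 bases upstream of the start in 1 of 2 windows (chr1:36558382-36558631, minus strand). For Sema6b, which fell, it begins 48 bases upstream in 1 of 2 windows (chr17:56133853-56134102, minus strand). The window of Plxnc1, which rose, holds neither motif (chr10:94944846-94945095, minus strand). These are letter matches in short windows and were not tied to the expression values.
Sema4c: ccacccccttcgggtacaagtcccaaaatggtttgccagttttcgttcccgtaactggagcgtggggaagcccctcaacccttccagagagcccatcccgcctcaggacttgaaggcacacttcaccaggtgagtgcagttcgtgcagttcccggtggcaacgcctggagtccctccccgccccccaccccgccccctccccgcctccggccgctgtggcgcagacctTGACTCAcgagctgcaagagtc
Sema6b: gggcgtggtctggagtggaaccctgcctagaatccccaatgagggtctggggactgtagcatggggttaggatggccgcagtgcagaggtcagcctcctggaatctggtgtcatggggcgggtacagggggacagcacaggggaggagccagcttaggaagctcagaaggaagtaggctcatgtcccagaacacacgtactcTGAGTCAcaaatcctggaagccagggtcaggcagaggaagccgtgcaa
Plxnc1: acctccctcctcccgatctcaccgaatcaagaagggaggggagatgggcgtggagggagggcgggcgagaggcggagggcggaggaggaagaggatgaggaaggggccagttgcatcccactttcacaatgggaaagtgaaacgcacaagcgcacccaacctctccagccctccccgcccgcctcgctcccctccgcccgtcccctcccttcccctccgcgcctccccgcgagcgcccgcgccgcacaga

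A further comparison sets the inhibitor alone against DMSO. In inhibitor cultures 7 members were lower and 1 was higher. By edgeR's quasi-likelihood test 8 of 30 members were called (26.7%), where 13% of all genes were, 7 lower (7.24% of all genes) and 1 higher (5.78% of all genes), with a median log2 change of -0.19 against 0.03 over all genes. Among genes with a mean of at least 10 CPM, 8 of 22 members were called against 18.7% of genes. The 8 were 5 of 20 ligands, all lower, and 3 of 10 receptors, and without inhibitor plus nocodazole replicate 1 the counts were the same, where 16.1% of all genes were called. Of the cell type markers, Mbp was called (-0.37). Without 1 library, the count of ligands fell to 2 (inhibitor replicate 2), 1 (inhibitor replicate 3) or 2 (DMSO replicate 4). The largest fall was that of Nrp1, the neuropilin that binds Sema3a and also vascular endothelial growth factor. It was at 146, 105, 144 and 119 CPM in inhibitor plus nocodazole cultures, 212, 227, 147 and 183 CPM in nocodazole cultures, 146, 146, 96.3 and 164 CPM in inhibitor cultures, and 271, 287, 250 and 261 CPM in DMSO cultures. All DMSO libraries were above all others, and nocodazole libraries were above all inhibitor plus nocodazole libraries. For Nrp1 the log2 change was -0.95 ± 0.153 in inhibitor against DMSO cultures (adjusted p = 0.00096), -0.58 ± 0.152 in inhibitor plus nocodazole against nocodazole cultures (adjusted p = 0.00716) and -1.06 ± 0.153 in inhibitor plus nocodazole against DMSO cultures (adjusted p = 0.000259). Plxna1, described above, was the member that rose.

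Sema5a was lower in inhibitor than in DMSO cultures at -0.77 ± 0.187 (edgeR adjusted p = 0.0139), a call lost without inhibitor replicate 2 (adjusted p = 0.0536) or 3 (0.0534). Sema3f, the secreted ligand of Nrp2, averaged 65.3 ± 7.06 CPM in inhibitor plus nocodazole cultures, 98.2 ± 12.5 CPM in nocodazole cultures, 69.2 ± 13.8 CPM in inhibitor cultures and 95.3 ± 6.75 CPM in DMSO cultures. Both groups with the inhibitor were below both groups without it, in every library. Its log2 change was -0.46 ± 0.127 in inhibitor against DMSO cultures (adjusted p = 0.0257), a call lost without inhibitor replicate 2 (0.0673) or 3 (0.0661) or DMSO replicate 3 (0.0572) or 4 (0.0825), and -0.59 ± 0.127 in inhibitor plus nocodazole against nocodazole cultures (adjusted p = 0.00178). Plxna4 averaged 625 ± 82.4, 736 ± 111, 688 ± 86.2 and 949 ± 55.8 CPM in inhibitor plus nocodazole, nocodazole, inhibitor and DMSO cultures, and fell by 0.46 on the log2 scale with the inhibitor alone (adjusted p = 0.0152; without inhibitor replicate 2, 0.0533, and without 3, 0.058). Sema4d, a ligand of Plxnb1, fell by 0.26 (adjusted p = 0.0164), a call lost without inhibitor replicate 3 (0.0509) or DMSO replicate 4 (0.0619). Sema4f fell by 0.24 (adjusted p = 0.036), lost without inhibitor replicate 2 (0.125) or 3 (0.0905) or DMSO replicate 1 (0.0523), 2 (0.0637) or 4 (0.12). Sema4g completes the 5 ligands. Members not called in inhibitor against DMSO cultures with all libraries, but called without 1 of them, were Sema6a (log2 change 0.42, adjusted p = 0.0714, or 0.50 and 0.0381 without inhibitor replicate 4 and 0.57 and 0.0208 without DMSO replicate 3), Sema4c (-0.32 and 0.0876, or -0.41 and 0.0376 without DMSO replicate 1), Sema6c (-0.36 and 0.0875, or -0.46 and 0.042 without DMSO replicate 1) and Sema3b (-0.38 and 0.107, or -0.49 and 0.0466 without inhibitor replicate 4). DESeq2 also called Sema6a (0.41, 0.0412).

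**Figure D4:**
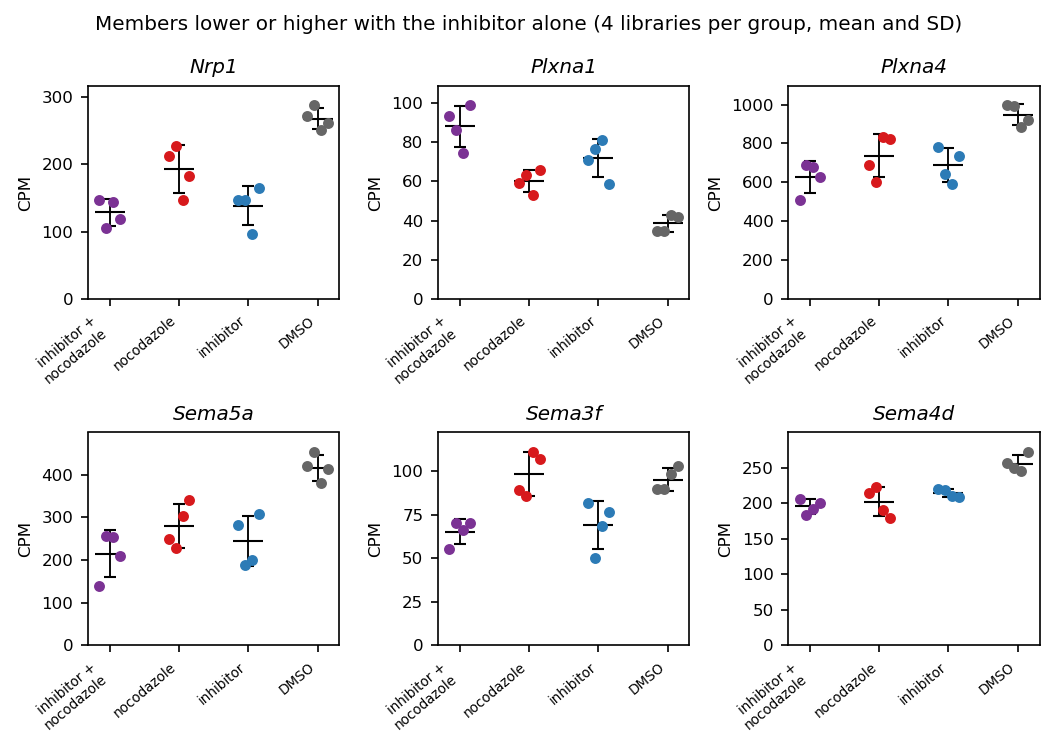
CPM (vertical axes, from 0) of 6 of the 8 members called in inhibitor against DMSO cultures, in inhibitor plus nocodazole, nocodazole, inhibitor and DMSO cultures from left to right; each point is a library and black bars are the mean and SD of 4. Plxna1 is lowest in DMSO cultures (34.5 to 42.8 CPM), Nrp1, Plxna4, Sema5a and Sema4d are highest there, and Sema3f separates by the inhibitor.

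In inhibitor plus nocodazole against nocodazole cultures, which asks what the inhibitor changed during nocodazole treatment, edgeR called 16 of 30 members (53.3%), where 33.9% of all genes were called. Among genes with a mean of at least 10 CPM, the count was 12 of 22 against 42.5%. Of the 16, 10 were higher (17.7% of all genes) and 6 lower (16.2% of all genes). The higher ones were Sema4a (log2 change 2.44), Sema3d (2.28), Sema6b (1.84), Plxna2 (0.73), Nrp2 (0.68), Plxna1 (0.55), Sema7a (0.46), Plxnd1 (0.46), Sema4g (0.43) and Sema6d (0.36), and the lower ones Sema5b (-1.39), Sema6a (-1.38), Sema4c (-1.14), Plxnc1 (-0.67), Sema3f (-0.59) and Nrp1 (-0.58). The Sema7a call (edgeR adjusted p = 0.0364) was lost without inhibitor plus nocodazole replicates 2, 3 or 4, nocodazole replicates 1, 2 or 3, or DMSO replicate 1, and with only its own groups in the fit (adjusted p = 0.0526 to 0.113). Of the neuronal markers, 5 of 8 were called higher here (62.5%), with Elavl4 at 1.53, Isl1 at 0.74, Rbfox3 at 0.73, Tubb3 at 0.65 and Pou4f1 at 0.49. Called lower were 1 of 4 glial markers (Erbb3, -1.84), 3 of 6 fibroblast markers (Dcn, -2.28, Col1a2, -1.89, and Fn1, -1.55) and 2 of 3 macrophage markers (Cd68, -1.33, and Aif1, -0.58). The part of these markers in the members' differences was not tested. Without inhibitor plus nocodazole replicate 1, 11 ligands and 6 receptors were called (37.4% of all genes), against 10 and 6 with it, the added ligand being Sema4f (0.21, adjusted p = 0.0138). Plxna4 was called without nocodazole replicate 2 (-0.32, adjusted p = 0.0383).

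In inhibitor plus nocodazole against DMSO cultures, edgeR called 12 of 30 members (40%), where 16.7% of all genes were called, and 11 of 22 against 24% among genes with a mean of at least 10 CPM. Of the 12, 2 were higher (8.26% of all genes) and 10 lower (8.48% of all genes). Plxna1 (log2 change 1.19) and Sema6a (0.57, adjusted p = 0.0143, or 0.0506 without DMSO replicate 1) were higher. Nrp1 (-1.06), Sema5a (-0.96), Sema3b (-0.77), Plxna4 (-0.60), Sema3f (-0.54), Sema4g (-0.54), Sema4c (-0.49), Sema6c (-0.41), Sema4d (-0.39) and Sema4f (-0.26) were lower. The Sema4f call (adjusted p = 0.0217) was lost without inhibitor plus nocodazole replicate 1 (0.0528) or DMSO replicate 4 (0.0757). The Sema6c call (adjusted p = 0.0464) was lost without inhibitor plus nocodazole replicates 1, 2 or 3, inhibitor replicates 3 or 4, or DMSO replicates 2, 3 or 4 (0.052 to 0.159). Without inhibitor plus nocodazole replicate 1, 8 ligands and 4 receptors were called (13.9% of all genes), against 9 and 3 with it. The called cell type markers were Tubb3 (-0.95) and Mbp (-0.42). Plxna3, Plxnb2, Sema3c and Sema3e were the 4 tested members called in none of the 6 comparisons by the fit to all libraries. Without inhibitor plus nocodazole replicate 1, Plxnb2 was called against DMSO cultures (-0.44, adjusted p = 0.0106), and Plxnb1 was without replicate 2 (-0.31, 0.0407). Sema4b was called without nocodazole replicate 3 (-0.28, 0.0265).

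Of 48 other genes of the pathway, 45 were tested, 11 co-receptors and modulators and 34 intracellular effectors. In nocodazole against DMSO cultures 20 of the 45 were called (44.4%, against 37.5% of all genes), 8 higher and 12 lower, with a median log2 change of -0.11. The count was 22 without inhibitor plus nocodazole replicate 1, against 40.2% of all genes. They comprised 3 co-receptors and modulators (2 higher, 1 lower) and 17 effectors (6 higher, 11 lower). EdgeR called 0 of the 45 in inhibitor plus nocodazole against inhibitor cultures, where only 0.0835% of all genes were called. There were 2 of the 45 at an unadjusted edgeR p below 0.05, and DESeq2 also called 0. Among called genes, the largest rises were those of Rnd1, a small GTPase that binds plexins, and its relative Rnd3. Rnd1 averaged 2.03 ± 0.56 CPM in inhibitor plus nocodazole cultures, 6.29 ± 0.80 CPM in nocodazole cultures, 1.64 ± 0.576 CPM in inhibitor cultures and 1.29 ± 0.50 CPM in DMSO cultures, a log2 change of 2.27 ± 0.278 in nocodazole against DMSO cultures (edgeR adjusted p = 1.02e-05). Rnd3 averaged 11.2 ± 3.67, 47.7 ± 8.09, 9.88 ± 1.5 and 9.97 ± 0.724 CPM in the same order, a log2 change of 2.26 ± 0.181 (adjusted p = 1.49e-07). Fes, a tyrosine kinase that acts on plexins, had a log2 change of 2.23 ± 0.535 (adjusted p = 0.0036) and averaged 0.387 ± 0.329 CPM in inhibitor plus nocodazole cultures, 0.792 ± 0.118 CPM in nocodazole cultures, 0.23 ± 0.0854 CPM in inhibitor cultures and 0.16 ± 0.101 CPM in DMSO cultures. Itga1, an integrin subunit of a Sema7a receptor, changed by 1.16 ± 0.379 (adjusted p = 0.0233), a call lost without nocodazole replicate 4 (0.0528) or DMSO replicate 4 (0.0647) or with no filter on low counts (0.0506). The largest falls among called genes were those of Mical3, of the actin-oxidising MICAL family (-0.96 ± 0.101, adjusted p = 2.4e-06), the heparan sulfate proteoglycan Sdc3 (-0.69 ± 0.115, 0.000211), the plexin-binding exchange factor Farp2 (-0.62 ± 0.0736, 8.08e-06) and Cdk5r1, the activator of the kinase Cdk5 (-0.60 ± 0.0581, 1.03e-06). Sh3bp1, at -0.82 ± 0.336, was not called (adjusted p = 0.0659).

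The interaction was called for 11 of the 45 pathway genes (24.4%, against 18.7% of all genes), 7 positive and 4 negative, or for 21 without inhibitor plus nocodazole replicate 1, where 27.1% of all genes were called. The negative ones were Rnd3 (-2.06 ± 0.253, edgeR adjusted p = 6.56e-05), Rnd1 (-1.95 ± 0.39, 0.00289), the kinase gene Rock1 (-0.53 ± 0.138, 0.0142) and the Src-family kinase Fyn (-0.25 ± 0.0711, 0.0245). The positive ones were Sh3bp1 (1.54 ± 0.519, 0.0477), Mical3 (0.76 ± 0.142, 0.00181), Farp2 (0.67 ± 0.103, 0.000412), Sdc3 (0.55 ± 0.163, 0.0273), Cdk5r1 (0.53 ± 0.0819, 0.000416), Mical2 (0.42 ± 0.141, 0.0449) and Ranbp9 (0.22 ± 0.063, 0.0218). Sh3bp1 averaged only 0.309, 0.358, 0.18 and 0.627 CPM in inhibitor plus nocodazole, nocodazole, inhibitor and DMSO cultures. Its largest change was in inhibitor against DMSO cultures (-1.77 ± 0.364, edgeR adjusted p = 0.00519). The nocodazole change of Sh3bp1 was not called with or without the inhibitor. The Fyn call was lost without inhibitor plus nocodazole replicates 2 or 4, inhibitor replicate 2 or DMSO replicate 2 (adjusted p = 0.0552 to 0.0581) and with no filter on low counts (0.111), and the Ranbp9 call with no filter (0.0916). The Sdc3 call was lost without inhibitor plus nocodazole replicates 2, 3 or 4, nocodazole replicate 1, inhibitor replicates 2 or 3 or DMSO replicate 4 (0.0507 to 0.0647). The Sh3bp1 call was lost without any one of 13 libraries (all but inhibitor plus nocodazole replicate 1, nocodazole replicate 4 and inhibitor replicate 4; 0.0525 to 0.0984), by DESeq2 (0.0557) and with no filter on low counts (0.0792). The Mical2 call was lost without any one of 14 (all but inhibitor plus nocodazole replicate 1 and inhibitor replicate 1; 0.0547 to 0.0941), among genes with at least 1 CPM in 4 libraries (0.0535) and with a replicate block (0.0603). In inhibitor against DMSO cultures 11 of the 45 were called (24.4%, against 13% of all genes), 2 higher and 9 lower. In inhibitor plus nocodazole against nocodazole cultures 20 were called (44.4%, against 33.9%), 9 higher and 11 lower, and in inhibitor plus nocodazole against DMSO cultures 12 (26.7%, against 16.7%), 2 higher and 10 lower. These counts were 13, 25 and 11 without inhibitor plus nocodazole replicate 1, against 16.1%, 37.4% and 13.9% of all genes. The inhibitor count was 7 without inhibitor replicate 2 or 3 or without DMSO replicate 2 or 4. The interaction count was also 7 without inhibitor plus nocodazole replicate 2 or 4 or inhibitor replicate 2.

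**Figure D5:**
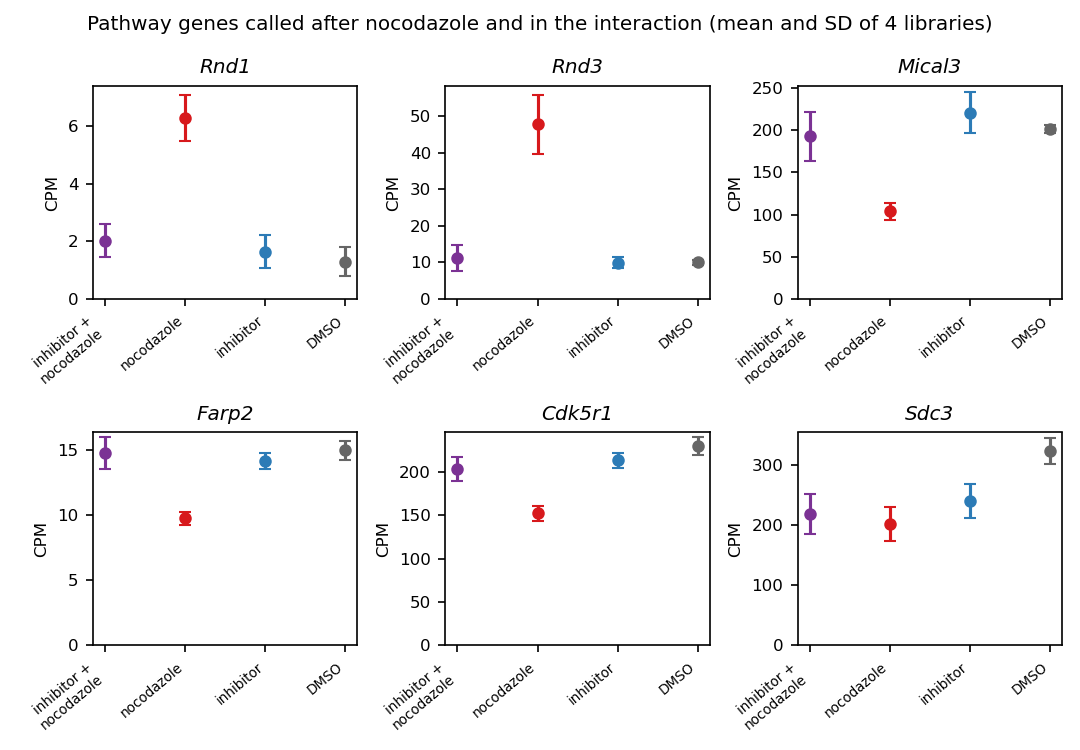
CPM (vertical axes, from 0) of 6 pathway genes called both in nocodazole against DMSO cultures and in the interaction, in inhibitor plus nocodazole, nocodazole, inhibitor and DMSO cultures from left to right; points are means and bars SDs of 4 libraries. Rnd1 and Rnd3 stand high in nocodazole cultures (6.29 and 47.7 CPM), and Mical3, Farp2 and Cdk5r1 stand low there.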

How the data were processed

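The values used are the counts that the authors deposited, whole numbers for each Ensembl identifier in 16 libraries. Per the labels' protocols, ribosomal RNA was removed before library preparation from total RNA. Per the submitters' processing notes, STAR, Salmon and GRCm39 were used. Which tool made the counts, the strand setting and the treatment of shared reads are not given in the sources used here. Of 55356 identifiers, 52080 (94.1%) matched a symbol in GENCODE M21 (GRCm38), which also gave exon lengths (the union of exons).

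Counts were fitted with edgeR 4.0.16 (limma 3.58.1, R 4.3.3): library scaling by the trimmed mean of M-values (factors 0.9595 to 1.064), default filterByExpr, which left 19156 genes (72 without a symbol), and a quasi-likelihood model with 1 mean per group over all 16 libraries (12 residual degrees of freedom). It gave 6 contrasts, adjusted by Benjamini-Hochberg over all genes tested and called below 0.05. The procedure was tested on simulated data. DESeq2 1.42.0, other scaling and filters, a replicate block, fits to the contrast's own groups and leaving out each library were alternatives. Replicates of a group differed beyond counting noise (chi-square over degrees of freedom 8.28 to 51.8 in 24 pairs).

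The members, the lists of pathway genes and of cell type markers, and the tests were chosen with earlier results of these data known. Kdr stands in both the co-receptor and the endothelial list. Members called with an absolute log2 change of at least 0.5 in nocodazole or inhibitor against DMSO cultures, or called in the interaction, are given with every sample. Pathway genes named are the 4 largest rises and 4 largest falls called after nocodazole and those called in the interaction.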

Additional observations from a re-analysis of the deposited data

Results flagged for a closer look

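The nocodazole change of 11 members differed with the inhibitor by the interaction test of edgeR (adjusted p in the report). Positive interactions, in which the nocodazole change was higher with the inhibitor, were 2.58 for Sema4a, 2.02 for Sema3d, 1.62 for Sema6b, 0.96 for Plxna2, 0.80 for Nrp2, 0.73 for Sema4g, 0.46 for Plxnd1 and 0.38 for Sema4f on the log2 scale. Negative ones were -1.80 for Sema6a, -0.82 for Sema4c and -0.59 for Plxnc1. Among pathway genes the same test gave 1.54 for Sh3bp1, 0.76 for Mical3, 0.67 for Farp2, 0.55 for Sdc3, 0.53 for Cdk5r1, 0.42 for Mical2, 0.22 for Ranbp9, -0.25 for Fyn, -0.53 for Rock1, -1.95 for Rnd1 and -2.06 for Rnd3. The value of Sh3bp1 rests on few counts, and its nocodazole change was not called with or without the inhibitor.

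In 5 of 172 sets of 4 replicates of a named gene, 1 library lay far from the other 3 by Dixon's criterion, which chance alone gives in about 1 set in 20. Sema4f was at 252 CPM in inhibitor plus nocodazole replicate 1, against 306 to 310 CPM in its replicates. Rnd3 was at 16.7 CPM in the same library, against 8.9 to 9.71 CPM. Among DMSO cultures, Sema3c was at 44.5 CPM in replicate 2 (37.2 to 38.4 CPM in the others), Fyn at 110 CPM in replicate 2 (121 to 122 CPM) and Sema4b at 65.7 CPM in replicate 3 (77.8 to 79.8 CPM).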

How the results depend on the processing

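Over 22 alternatives, 0 of the 71 calls of named members and 0 of the 36 of named pathway genes reversed; 5 and 8 of them were lost under an alternative other than leaving out a library, and 17 and 9 without some library. In inhibitor plus nocodazole against inhibitor cultures, 16 genes were called by edgeR, 125 by DESeq2, 28 with no filter on low counts and 6 with only those groups in the fit. DESeq2 called 1 ligand there, where edgeR called 0. In inhibitor plus nocodazole against DMSO cultures 5 receptors were called with only those groups in the fit, against 3, with Plxna3 (-0.25, adjusted p = 0.0177) and Plxnb1 (-0.26, 0.0386) added, as was the ligand Sema4b (-0.31, 0.0115). Leaving out each library in turn gave 3 to 87 genes and 0 to 1 ligands in inhibitor plus nocodazole against inhibitor cultures (87 without inhibitor plus nocodazole replicate 1) and 2106 to 3402 genes in inhibitor plus nocodazole against DMSO cultures, against 3207 (2106 without DMSO replicate 4). In inhibitor against DMSO cultures it gave 1265 to 3123 genes, against 2494, with 1265, 1313, 1550 and 1297 without inhibitor replicates 2 and 3 and DMSO replicates 2 and 4, 1 to 7 ligands and 7 to 13 pathway genes. In the interaction it gave 2 to 5 receptors, with 2 without inhibitor plus nocodazole replicates 2, 3 or 4, nocodazole replicates 1 or 2, or inhibitor replicates 2 or 3, and 7 to 21 pathway genes. Replicate numbers did not pair the libraries: 8 of 24 same-number correlations of deviations from the group means were above 0.1 (-0.399 to 0.232), and 5 of 16 libraries correlated best with their own number. Across different numbers and groups these correlations ran from -0.333 to 0.452. Libraries may therefore share variation that the replicate numbers do not track, and its part in the results was not tested. The run of samples 5 to 9 with high mitochondrial shares (above) crosses replicate numbers, so the replicate block does not follow it. With the replicate block, 5 genes were called in inhibitor plus nocodazole against inhibitor cultures, and the calls of Sema4f in inhibitor against DMSO cultures (adjusted p = 0.0503) and of Plxnd1 (0.0583) and Mical2 (0.0603) in the interaction were lost, while Sema6c in inhibitor against DMSO cultures was called (-0.34, 0.0448). Sema3g, Sema5b, Sema3e, Itga1, Fes and Sh3bp1 rest on few counts, which limits their precision.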
